A study of Mus musculus with 12 samples.

Results

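The genes described here are 41 markers of macrophages and other leukocytes, out of 20718 genes in the deposited table of testis gene expression. They were chosen by name, as known markers of these cells, but with earlier results of these data known. All 41 have a row in the table. Total RNA of testes from F0 mice of a strain given as IRC mouse was sequenced in 12 libraries, 3 in each of 4 groups. In the group 8276OV the testes received a virus that overexpressed the long noncoding RNA lncRNA8276, and in the group 8276KD a virus that inhibited it. The groups 5NC and 3NC are named without explanation. They were taken to be virus controls, 5NC for 8276OV and 3NC for 8276KD, from their place in the design statement, and each treated group was also set beside the other control. The labels name neither the virus, its promoter and the cells it entered, nor the age of the mice and the time between virus and sampling. Whether the libraries of a group stem from different mice is not stated, and each p-value therefore rests on a spread between libraries that may be technical.

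Macrophages are the main leukocytes of the testis, where some lie among the Leydig cells in the interstitium and others on the wall of the seminiferous tubules. They depend on the growth factor receptor Csf1r and the transcription factor Spi1 (PU.1), take up debris, make complement C1q and help to keep the tissue tolerant of germ cells. T cells, B cells and neutrophils are scarce in the healthy testis, and all leukocytes share surface proteins such as Ptprc (CD45).

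The libraries held 15448442 to 16355720 estimated reads, of which the 41 markers took a small share. Markers of germ cells, a list of 11 genes, summed to between 15700 and 18900 CPM (reads divided by the total of their library and scaled alike) in every library. Germ cell RNA was thus present in each, which does not show that a library held testis alone. A list of 6 epididymis genes summed to 114 and 121 CPM in 5NC replicates 2 and 3, and to between 0.806 and 14.9 CPM in the other libraries. The 40 leukocyte markers other than Aif1 made up 0.0159% to 0.0504% of the reads of a library. A count of 3 reads, the limit that a count of 0 allows, equalled 0.183 to 0.194 CPM, and this limit covers counting error only. For 34 of the 41 markers the reads passed the filter on low counts and were tested. Reads of Cd3e, Cd3g, Nkg7, Cd79a, Cd79b, S100a8 and S100a9 did not, and these 7 are given as reads.

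PU.1 and its relatives of the ETS family bind sequences built around GGAA, and the 8-base form GAGGAAGT was searched on both strands in RefSeq promoters of GRCm38.p6, from 250 bases before a start to 50 after it. The table held a promoter for 26 of the 41 markers and none for 15. The letters stood in a promoter of 5 of the 26 markers (19.2%), against 997 of all 27025 genes (3.69%). Counted by promoter, they stood in 5 of the markers' 29 (17.2%), against 1052 of all 32851 (3.2%). The 30-base windows around these matches are shown because they hold the letters searched for; capitals mark the motif or its reverse complement, and each window reads 5′ to 3′ on the gene's strand. A match describes these letters and is neither a shown binding site nor a cause of any level below. The windows lie at chr3:90668888-90668917 (S100a8, plus strand), chr3:95526773-95526802 (Ctss, plus), chr3:106790125-106790154 (Cd53, minus), chr4:136893091-136893120 (C1qc, minus) and chr11:46454912-46454941 (Havcr2, plus).
S100a8: ccaacactcccACTTCCTCagactcagaaa
Ctss: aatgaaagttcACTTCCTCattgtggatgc
Cd53: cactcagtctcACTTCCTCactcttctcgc
C1qc: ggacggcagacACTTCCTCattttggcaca
Havcr2: ctcaggagttaGAGGAAGTaccattttaac
Counted from the start of transcription used for each promoter, the matches of Ctss and Havcr2 begin 2 and 8 bases before it. Those of S100a8 and C1qc begin 172 and 195 bases before it, and that of Cd53 lies just after it. The 250 bases before the start used for C1qc, at chr4:136892915-136893164 on the minus strand, are given in full because C1qc is described with its values below. That start lies inside the gene as placed at chr4:136889801-136892936, so the last of these bases overlap the gene. The match of C1qc thus lies nearer to the outer end of the gene than to the start used.
C1qc upstream: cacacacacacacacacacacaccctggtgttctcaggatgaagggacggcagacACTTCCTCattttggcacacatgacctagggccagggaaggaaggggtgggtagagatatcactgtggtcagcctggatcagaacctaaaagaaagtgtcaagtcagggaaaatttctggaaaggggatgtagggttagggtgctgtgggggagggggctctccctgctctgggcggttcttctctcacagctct

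Levels of different genes were compared as FPKM, reads scaled to gene length and library total. Aif1, which encodes the actin-binding protein Iba1 of macrophages, stood far above the rest, with a mean of 413 FPKM over the 12 libraries. The next were Lyz2 (lysozyme) at 27.0, C1qb at 15.9, Cd52 at 14.3, C1qa at 13.8, C1qc at 13.2, Mpeg1 (the pore-forming perforin-2) at 10.5, Ctss (the protease cathepsin S) at 9.26 and Mrc1 (the mannose receptor) at 7.43 FPKM. The mean of Cd52 was carried by 5NC, with 38.9 FPKM there, 2.59 in 3NC, 5.92 in 8276KD and 9.58 in 8276OV. The pan-leukocyte genes Ptprc, at 0.747 FPKM, and Itgal, at 0.444, were low. The lowest were the B cell receptor subunit Cd79a at 0.0925, the T cell receptor subunit Cd3e at 0.153 and Cd79b at 0.167 FPKM.

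Aif1 did not share the pattern of the other markers. Its level was 314, 330 and 327 CPM in the 3NC libraries, 269, 330 and 306 in 5NC, 320, 319 and 343 in 8276KD, and 311, 302 and 312 in 8276OV. 5NC overlapped the other groups and held the lowest library, replicate 1, while the 8276OV libraries lay just below all of 3NC and 8276KD. The log2 difference of 8276OV from 5NC was 0.05 ± 0.09 (edgeR, adjusted p = 0.834). Sums over the markers are given without Aif1, a choice made after these values were seen, and also with it. Whether Aif1 reads in these libraries came from macrophages was not tested.

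**Figure D1:**
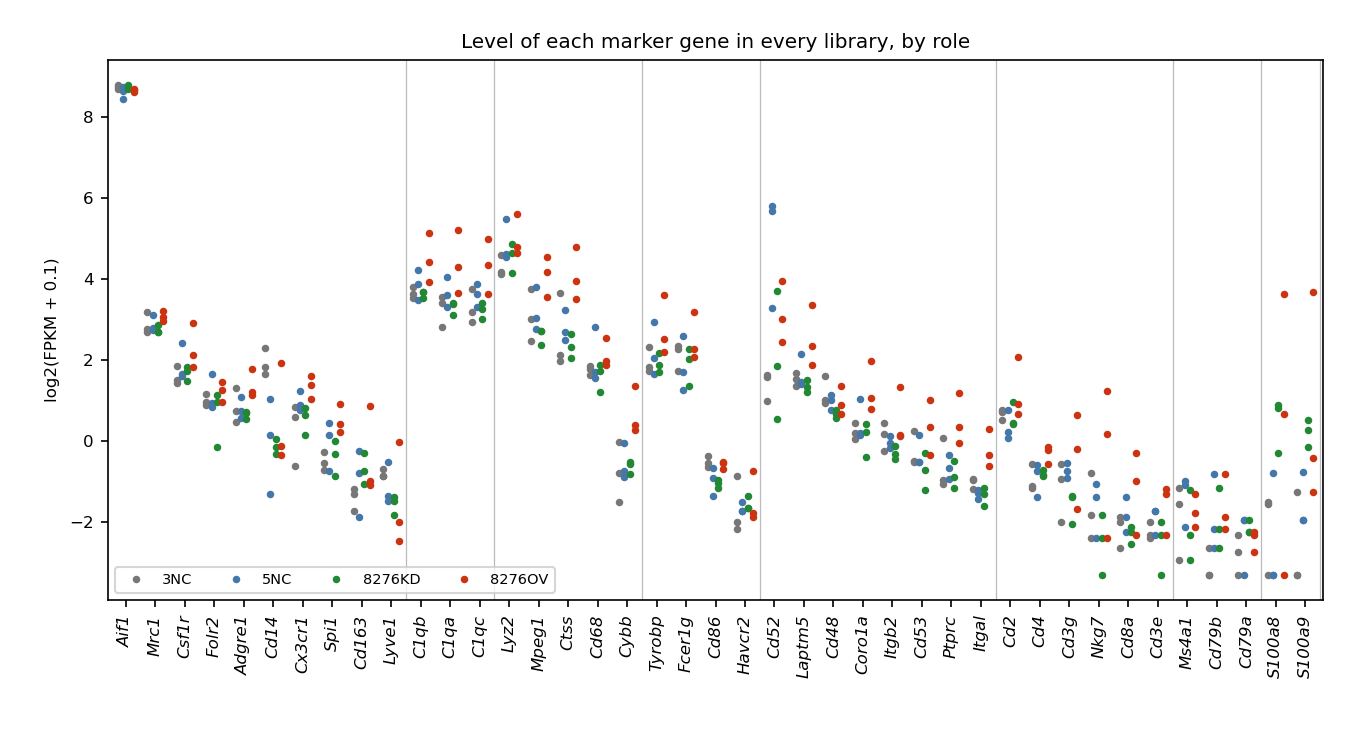
Levels of the 41 markers as log2(FPKM + 0.1), with 1 point per library coloured by group; genes are ordered by role, from macrophage surface genes on the left to neutrophil genes on the right, and grey lines part the roles. Aif1 lies apart at the top, Cd52 is spread between 5NC and the other groups, and for many genes the highest point is an 8276OV library.

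Summed without Aif1, the markers were highest in 8276OV replicates 1 and 2, and replicate 1 stood apart. The sums were 162, 259 and 179 CPM in 3NC replicates 1 to 3, 300, 214 and 202 in 5NC, 159, 192 and 185 in 8276KD, and 504, 303 and 253 in 8276OV. The groups overlapped, since 5NC replicate 1 and 3NC replicate 2 lay above 8276OV replicate 3. With Aif1 the sums were 475, 589 and 506 CPM in 3NC and 569, 544 and 508 in 5NC. They were 479, 511 and 527 CPM in 8276KD and 815, 605 and 565 in 8276OV. Library 8276OV replicate 1 held the highest value of 30 of the 41 markers, 5NC replicate 1 that of 4 and 3NC replicate 2 that of 3. In whole tissue, fewer cells of a type and less RNA per cell cannot be told apart.

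**Figure D2:**
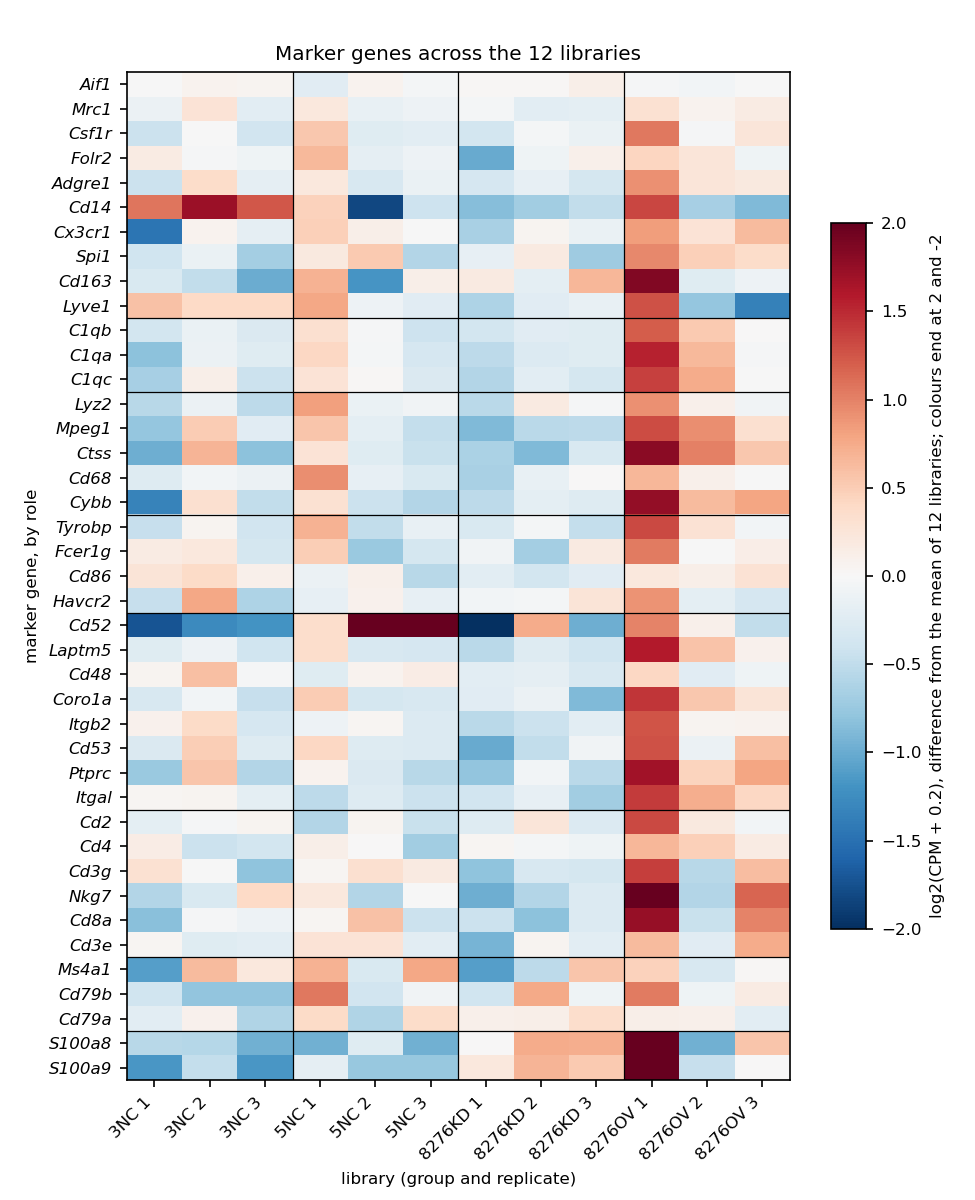
Each marker in each of the 12 libraries, as log2(CPM + 0.2) minus the mean of the 12; red is above the mean, blue below, with colours ending at 2 and -2. The column of 8276OV replicate 1 is red for most genes. Cd52 is high in 5NC replicates 2 and 3, and Cd14 in the 3 3NC libraries and in 8276OV replicate 1.

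Between 8276OV and 5NC, most leukocyte markers had higher means in 8276OV, but none passed the test over all genes. edgeR's quasi-likelihood test called 0 of 34 tested markers and 0 of 16320 genes (0%) at an adjusted p under 0.05. At an unadjusted p under 0.05 there were 15 of 34 markers, 14 with a higher mean in 8276OV and Cd52 with a lower one, beside 1697 genes (10.4%). The mean was higher for 31 of the 34 markers, with a median log2 difference of 0.67, whereas over all genes the median was -0.00 and 49.7% were positive. The 3 8276OV libraries lay above the 3 5NC libraries for 7 of the 34, namely Cd4, Cd86, Ctss, Cybb, Itgal, Itgb2 and Ptprc, beside 6.45% of all genes. For 0 markers did they lie below, beside 8.79% of all genes. Without 8276OV replicate 1 the median was 0.30 and the mean was higher for 24 markers, since Cd14, Cd163, Cd48, Cd68, Folr2, Havcr2 and Lyz2 turned from higher to lower. DESeq2 called 45 genes, among them 1 marker, Itgal (adjusted p = 0.0256), and limma voom with sample weights called 31, with Ctss, Itgal and Mpeg1 among them.

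The replicate numbers in the titles were then used as a block, because same-numbered 8276OV and 5NC libraries deviated together, though weakly. The correlations of their deviations from the group means were 0.16, 0.15 and 0.11, all over the limit of 0.1 set for pairing, although with a prior count of 0.5 in place of 2 they were 0.14, 0.13 and 0.09. Libraries of different numbers had correlations from -0.16 to 0.02. Deviations from a mean of 3 libraries sum to 0, so these correlations are not independent of each other. In a fit of these 2 groups with that block, edgeR called 9 of the 32 markers it tested, all higher in 8276OV, beside 215 of 15950 genes (1.35%). The 9 were Ptprc, Itgal and Laptm5 of leukocytes in general, Ctss, Cybb and Mpeg1 of the phagosome and lysosome, and the 3 C1q chains. A block in the fit of all 4 groups called 0 markers, and so did the 2 groups without a block. The labels do not say what the numbers mark, so the block's 9 calls rest on a pairing read from the tested counts themselves. Counted directly, 22 of the 34 markers were higher in 8276OV in 3 of 3 same-numbered libraries, beside 2434 of all genes (14.9%). With both number 1 libraries left out, a choice made after seeing the data, the block called 5 markers: Ctss, Cybb, Mpeg1 and Ptprc higher and Cd52 lower. That setting called 268 genes in all, more than the 215 of the full blocked fit, and their share of the genes tested was not computed.

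**Figure D3:**
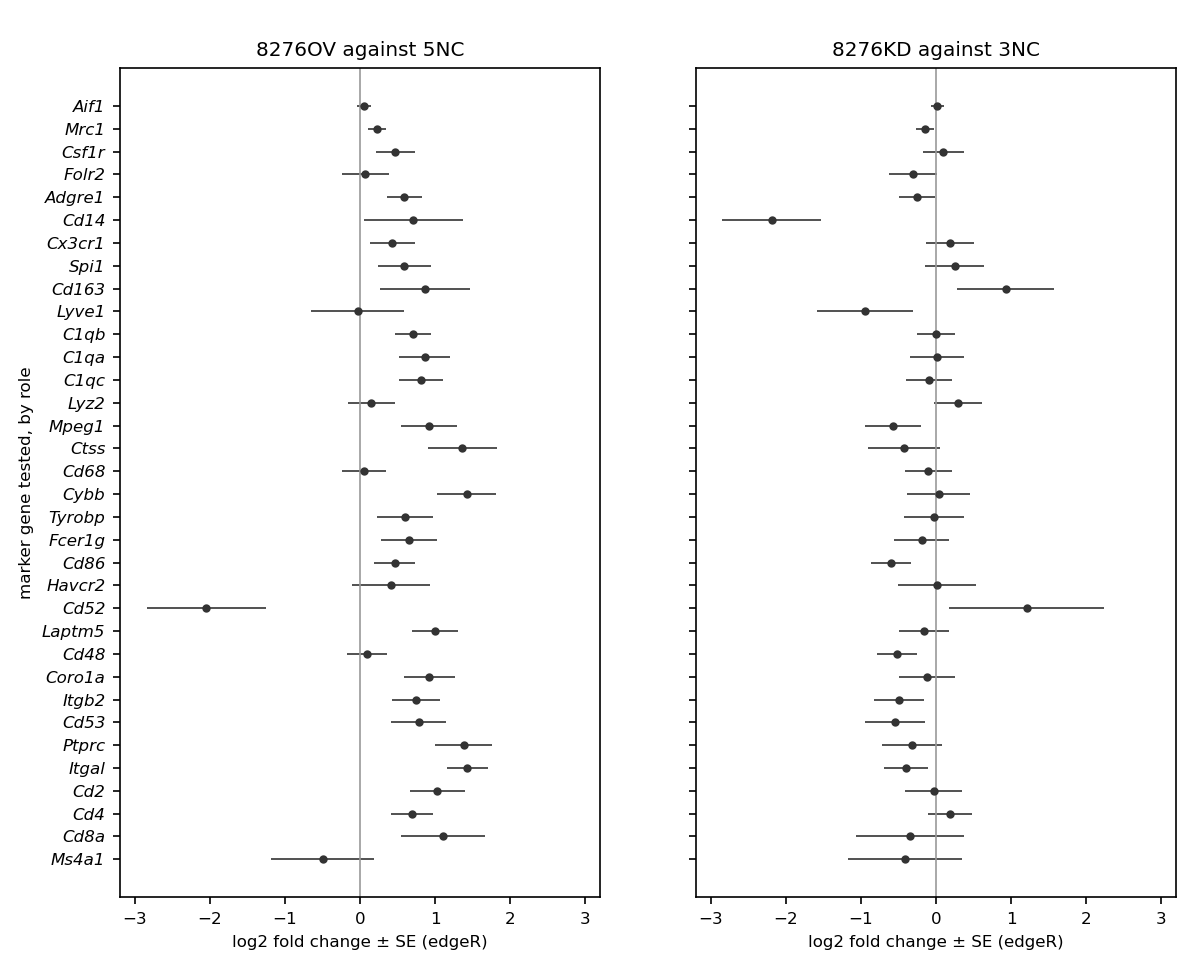
The log2 fold change of each tested marker with its SE from edgeR, in the fit of all 4 groups without a block, for 8276OV against 5NC on the left and 8276KD against 3NC on the right. On the left 31 of 34 points lie right of 0 and Cd52 lies lowest; on the right the points scatter around 0, with Cd14 at -2.19.

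The 10 macrophage surface and lineage genes had a median log2 difference of 0.45, and 9 of them had higher means in 8276OV. Adgre1 (F4/80, a classical macrophage antigen) was at 6.33, 4.34 and 4.93 CPM in 5NC and 10.4, 6.45 and 6.27 in 8276OV. Only 5NC replicate 1 reached the lower 8276OV values, and the difference was 0.59 ± 0.23 (edgeR, adjusted p = 0.436). Csf1r, the receptor through which Csf1 and Il34 keep macrophages alive, was at 18.6, 10.7 and 11 CPM in 5NC and 26.7, 12.6 and 15.2 in 8276OV, with overlap. Without 8276OV replicate 1 the difference of Adgre1 was 0.32, and that of Csf1r was 0.09 in place of 0.47. Mrc1 varied little, from 34.4 to 44.0 CPM in 5NC and from 40.1 to 47.4 in 8276OV, a difference of 0.22 ± 0.12. Differences for the chemokine receptor Cx3cr1 (0.43), the transcription factor Spi1 (0.59), the folate receptor Folr2 (0.07) and Lyve1, a hyaluronan receptor of some tissue macrophages and of lymphatic vessels (-0.03), had adjusted p-values from 0.539 to 0.99 in edgeR. Cd163, the haemoglobin scavenger receptor, and Cd14, the co-receptor for bacterial lipopolysaccharide, differed by 0.86 and 0.71. Without 8276OV replicate 1 the differences were -0.22 for Cd163, -0.48 for Cd14, -0.06 for Folr2, -1.69 for Lyve1, 0.29 for Cx3cr1 and 0.38 for Spi1.

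The 3 chains of complement C1q, whose genes lie side by side on chromosome 4 (RefSeq, GRCm38.p6: C1qb at chr4:136880126-136886200, C1qc at chr4:136889801-136892936 and C1qa at chr4:136895916-136898844), varied together. C1qb was at 10.7, 12.7 and 11.3 CPM in 3NC, 17.4, 13.7 and 10.4 in 5NC, 10.7, 11.9 and 11.8 in 8276KD, and 32.5, 20.2 and 14.0 in 8276OV. C1qa was at 6.63, 10.9 and 10 CPM in 3NC, 15.8, 11.5 and 9.29 in 5NC, 8.16, 9.8 and 9.99 in 8276KD, and 34.9, 18.7 and 11.7 in 8276OV. C1qc was at 7.01, 12.1 and 8.22 CPM in 3NC, 13.6, 11.4 and 9.1 in 5NC, 7.41, 9.61 and 8.67 in 8276KD, and 29.2, 18.8 and 11.1 in 8276OV. In each gene 8276OV replicate 3 lay inside the range of 5NC, and 8276OV replicate 1 was the highest of all 12 libraries. The differences without a block were 0.86 ± 0.34 for C1qa, 0.71 ± 0.24 for C1qb and 0.81 ± 0.29 for C1qc, none called (edgeR, adjusted p from 0.408 to 0.444). With the block they were 0.76, 0.66 and 0.74, with adjusted p-values in edgeR of 0.00504, 0.0078 and 0.0078. Without 8276OV replicate 1, and with no block, they were 0.35, 0.34 and 0.42.

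Among the 5 phagosome and lysosome genes, 3 had log2 differences of 0.92 or more and 2 of 0.15 or less. Cybb, the membrane subunit of the NADPH oxidase that makes superoxide in phagocytes (chrX:9435252-9487766), was at 1.15, 4.04 and 2.20 CPM in 3NC, 4.0, 2.33 and 2.05 in 5NC, 2.15, 2.77 and 2.64 in 8276KD, and 11.3, 5.07 and 5.64 in 8276OV. All 3 8276OV libraries exceeded the other 9. The mean was 7.35 ± 3.46 CPM in 8276OV against 2.79 ± 1.06 CPM in 5NC (SD, n = 3), and the log2 difference was 1.42 ± 0.39 (edgeR, adjusted p = 0.404; 6.23e-05 with the block). Ctss, which processes antigens in the endosome (chr3:95526786-95556405), was at 4.65, 15.2 and 5.24 CPM in 3NC, 11.4, 7.9 and 6.86 in 5NC, 6.01, 4.97 and 7.54 in 8276KD, and 33.4, 19 and 13.7 in 8276OV. 8276OV and 5NC did not overlap, but 3NC replicate 2 lay above 8276OV replicate 3. Its difference was 1.36 ± 0.46 without the block and 1.30 ± 0.15 with it (edgeR, adjusted p = 0.419 and 2.04e-07).

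Mpeg1 (chr19:12460770-12465285) had the smallest p of the markers in the blocked fit. It was at 22.7, 55.3 and 33.4 CPM in 3NC, 57.4, 33.9 and 27.8 in 5NC, 21.1, 26.7 and 27.0 in 8276KD, and 96.7, 74.6 and 48.8 in 8276OV. 8276OV replicate 3 lay below 5NC replicate 1, but each 8276OV library exceeded the 5NC library of its own number, by log2 ratios of 0.75, 1.14 and 0.81. The difference was 0.92 ± 0.37 without the block (edgeR, adjusted p = 0.444) and 0.92 ± 0.10 with it (adjusted p = 5.36e-08). Lyz2 was at 16.1, 21.9 and 16.5 CPM in 3NC, 41.8, 21.5 and 22.6 in 5NC, 16.3, 26.8 and 23.3 in 8276KD, and 45, 25.5 and 22.6 in 8276OV. The endosomal glycoprotein Cd68 showed the same overlap, with 7.81 CPM in 5NC replicate 1 as its highest library, and the differences were 0.15 ± 0.31 for Lyz2 and 0.05 ± 0.29 for Cd68. Without 8276OV replicate 1 these 2 were -0.21 and -0.19.

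Tyrobp and Fcer1g, the adaptors that carry ITAM signals from activating receptors, had differences of 0.60 ± 0.37 and 0.65 ± 0.37, with overlapping libraries. Tyrobp was at 1.40, 2.08 and 1.49 CPM in 3NC, 3.36, 1.36 and 1.79 in 5NC, 1.58, 1.93 and 1.38 in 8276KD, and 5.28, 2.5 and 1.92 in 8276OV. Replicate 1 was thus the highest library of both 5NC and 8276OV, and without 8276OV replicate 1 the differences were 0.06 for Tyrobp and 0.23 for Fcer1g. The costimulatory ligand Cd86 and the inhibitory receptor Havcr2 (TIM-3) differed by 0.46 ± 0.27 and 0.41 ± 0.52, the latter turning to -0.23 without 8276OV replicate 1. None of the 4 was called in edgeR without the block, nor were Tyrobp, Fcer1g and Cd86 with it.

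Of the 8 genes of leukocytes in general, Itgal had the smallest p of all markers without a block. It encodes the alpha chain of the integrin LFA-1, with which leukocytes adhere to other cells (chr7:127296139-127335137). Itgal was at 2.10, 2.14 and 1.75 CPM in 3NC, 1.36, 1.68 and 1.47 in 5NC, 1.52, 1.81 and 1.19 in 8276KD, and 5.73, 3.50 and 2.79 in 8276OV. Every 8276OV library exceeded the other 9, with a mean of 4.01 ± 1.53 CPM against 1.5 ± 0.166 CPM in 5NC (SD, n = 3). The difference was 1.43 ± 0.27 (edgeR, adjusted p = 0.258; 0.0044 with the block), and without 8276OV replicate 1 it was 1.08. Itgb2, the beta chain that pairs with Itgal, was at 2.39, 2.65 and 2.11 CPM in 5NC and 6.44, 2.69 and 2.73 in 8276OV, so that 2 of the 8276OV libraries lay just above the 5NC range. Its difference of 0.74 ± 0.32 was 0.21 without 8276OV replicate 1.

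Ptprc, the phosphatase CD45 found on nearly all leukocytes (chr1:138062859-138175756), was at 1.78, 4.65 and 2.01 CPM in 3NC, 3.29, 2.52 and 2.05 in 5NC, 1.71, 2.97 and 2.07 in 8276KD, and 10.4, 4.32 and 5.52 in 8276OV. Its 8276OV libraries lay above 5NC without overlap, but 3NC replicate 2 lay above 8276OV replicate 2. The mean was 6.73 ± 3.2 CPM in 8276OV against 2.62 ± 0.627 CPM in 5NC (SD, n = 3), and the difference was 1.38 ± 0.38 (edgeR, adjusted p = 0.404; 0.000318 with the block). The lysosomal protein Laptm5 (chr4:130912890-130936148) was at 6.56, 7.21 and 5.83 CPM in 3NC, 9.94, 6.15 and 6.09 in 5NC, 5.25, 6.45 and 5.84 in 8276KD, and 23.8, 11.6 and 8.25 in 8276OV. 8276OV replicate 3 lay below 5NC replicate 1, and the difference was 1.0 ± 0.31 (edgeR, adjusted p = 0.404; 0.00147 with the block). The actin regulator Coro1a (0.92 ± 0.34) and the tetraspanin Cd53 (0.78 ± 0.37) had higher means in 8276OV, whereas the adhesion protein Cd48 differed by 0.09 ± 0.27. Without 8276OV replicate 1 the differences were 0.46 for Laptm5, 0.47 for Coro1a, 0.35 for Cd53 and -0.14 for Cd48. Exons of Coro1a overlap those of Bola2 on the opposite strand, and since the strandedness of the libraries is not given, reads of the 2 cannot be told apart; the same holds for Csf1r with Hmgxb3, Folr2 with Gm10602, Cx3cr1 with Gm33858, Cd52 with Crybg2 and Cd3e with Gm48719.

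**Figure D4:**
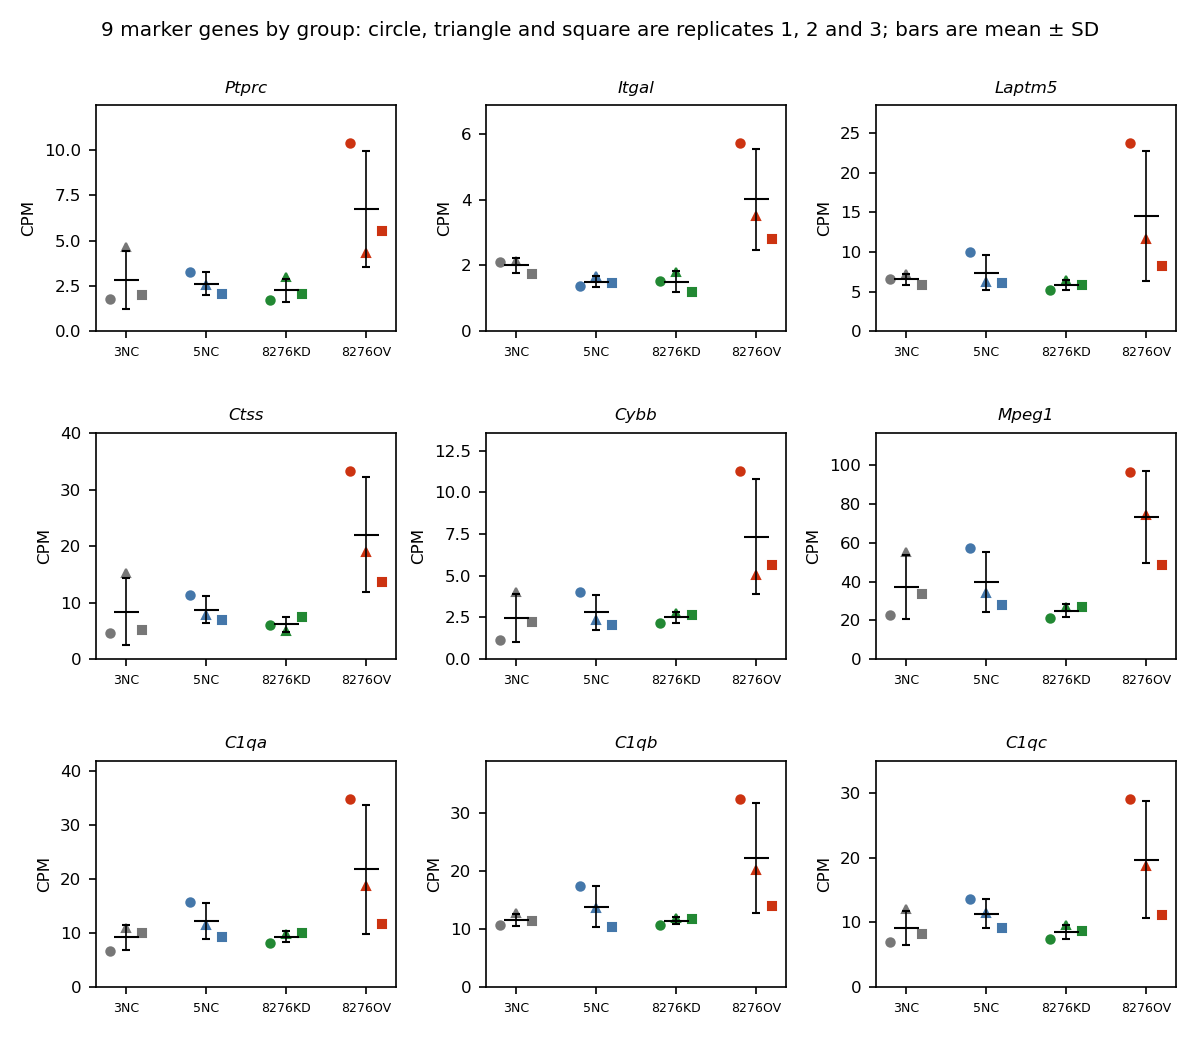
CPM of the 9 markers called in the fit of 8276OV and 5NC with the replicate number as a block, by group, with circle, triangle and square for replicates 1, 2 and 3 and mean ± SD (n = 3). In each panel the 8276OV circle is the highest of the 12 points, and only in the Itgal and Cybb panels do all 3 8276OV points lie above the other 9.

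Markers of lymphocytes were few in reads. Cd2, an adhesion receptor of T and NK cells, was at 1.34, 1.53 and 1.62 CPM in 3NC, 0.968, 1.62 and 1.09 in 5NC, 1.27, 1.87 and 1.26 in 8276KD, and 4.18, 1.81 and 1.49 in 8276OV. Only 8276OV replicate 1 lay far from the rest, and the difference of 1.03 ± 0.37 (edgeR, adjusted p = 0.419) was 0.45 without it. The co-receptors Cd4, which some macrophages also carry, and Cd8a differed by 0.69 ± 0.28 and 1.11 ± 0.56, the latter by 0.44 without 8276OV replicate 1. The T cell receptor subunits Cd3e and Cd3g had 0 to 7 and 2 to 20 reads per library, and the cytotoxic granule gene Nkg7 had 0 to 24. Over the 3 libraries Nkg7 had 36 reads in 8276OV and 8 in 5NC, a ratio of 4.40 with a 95% counting interval of 2.01 to 10.9, but 12 of the 36 came from the 2 libraries other than 8276OV replicate 1. The B cell gene Ms4a1 (CD20) was at 0.0637, 0.673 and 0.453 CPM in 3NC, 0.710, 0.259 and 0.769 in 5NC, 0.0633, 0.193 and 0.628 in 8276KD, and 0.579, 0.25 and 0.372 in 8276OV, with overlap of all groups. The B cell receptor subunits Cd79a and Cd79b had 0 to 3 and 0 to 8 reads per library. Over 3 libraries Cd79b had 9 reads in 8276KD and 1 in 3NC, a ratio of 9.05 with a 95% counting interval of 1.25 to 397. By library these were 1, 6 and 2 reads in 8276KD and 1, 0 and 0 in 3NC. It had 11 reads in 5NC and 13 in 8276OV, a ratio of 1.15 (0.477 to 2.85). The counting intervals of Cd3e, Cd3g and Cd79a included 1 for 8276OV against 5NC and for 8276KD against 3NC. So did that of Nkg7 for 8276KD against 3NC (0.0645 to 1.57). All these intervals cover counting error only, not the spread between libraries.

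The neutrophil genes S100a8 and S100a9, which encode the 2 subunits of calprotectin, were concentrated in 1 library. S100a8 (chr3:90669071-90670034) had 50, 0 and 6 reads in the 8276OV libraries, 0, 2 and 0 in 5NC, 3, 7 and 7 in 8276KD, and 1, 1 and 0 in 3NC. S100a9 had 77, 2 and 4 reads in 8276OV, 3, 1 and 1 in 5NC, 5, 8 and 7 in 8276KD, and 0, 2 and 0 in 3NC. Thus 8276OV replicate 1 held 89.3% and 92.8% of the 8276OV reads of the pair. Ngp, another neutrophil granule gene, singled out after its values were seen, had 41, 0 and 2 reads in 8276OV. Its list of other T, NK, B and granulocyte genes did not move one way. That list pools cell types, so Ngp alone does not show what its other granulocyte genes did. Of 15 tested there, 9 had higher means in 8276OV than in 5NC and 6 lower, with a median log2 difference of 0.17. In 8276KD all 3 libraries exceeded all 3 of 3NC for S100a8 and S100a9, as they did for 7.97% of the genes tested. For S100a8, 17 reads against 2 is a ratio of 8.55 (95% counting interval 2.03 to 76.3). For S100a9, 20 against 2 is a ratio of 10.1 (2.44 to 88.8). These intervals cover counting error only. The part of blood left in the tissue was not tested; the 7 red blood cell genes summed to 97.6, 42.9 and 31.1 CPM in 8276OV, 71.7, 53.0 and 45.6 in 5NC, 70.4, 123 and 95.4 in 8276KD, and 62.3, 54.8 and 61.8 in 3NC.

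Genes that work beside the markers were read from further lists, and none of their genes was called for 8276OV against 5NC by edgeR without a block. Of 24 genes of leukocyte signalling and the NADPH oxidase, 22 had higher means in 8276OV, with a median log2 difference of 0.52; the kinase Lyn, which signals below immune receptors, differed by 1.04 ± 0.29, without overlap of the libraries. All 7 genes of MHC class II, the molecules that present peptides to helper T cells, had higher means, with a median of 1.86. Their summed level was 99.4, 94.4 and 51.3 CPM in 5NC and 360, 252 and 136 in 8276OV, but 128 in 3NC replicate 2, against 45.6 and 53.5 in the other two 3NC libraries. Other macrophage and dendritic cell genes did not move one way: 18 of 26 had higher means, with a median of 0.13, while the lipid receptor Trem2 had a lower one, by -1.66 ± 0.47, with all its 8276OV libraries below 5NC. The 8 Leydig cell genes and the 7 peritubular myoid genes all had lower means in 8276OV, with medians of -0.49 and -0.47. Leydig genes summed to between 1290 and 2080 CPM in 8276OV and between 1790 and 3290 in 5NC, and germ cell genes had a median of -0.02. The part of a shift in cell mixture in the marker levels was not tested.

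Between 8276KD and 3NC the markers showed no common direction. edgeR called 0 of 34 markers, beside 29 of 16320 genes (0.178%), and 2 markers, Cd14 and Cd86, had an unadjusted p under 0.05, beside 979 genes (6%). The mean was higher in 8276KD for 11 markers and lower for 23, with a median of -0.13, which became 0.02 with 20 higher when 3NC replicate 2 was left out. The libraries did not overlap for Cd163, which was higher (1 of 34, beside 7.97% of all genes), and for Cd14, Cd48, Cd86 and Lyve1, which were lower (4 of 34, beside 8.45%). DESeq2 and limma voom called 0 markers.

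Cd14 showed the largest difference of the markers between these groups. It was at 4.65, 7.34 and 5.24 CPM in 3NC, 2.97, 0.453 and 1.54 in 5NC, 1.08, 1.23 and 1.45 in 8276KD, and 5.66, 1.25 and 1.05 in 8276OV. The 3 3NC libraries were above all others except 8276OV replicate 1. The difference of 8276KD from 3NC was -2.19 ± 0.66 (edgeR, adjusted p = 0.577), and in the fit of the 2 groups alone it was called, at -2.18 (adjusted p = 0.00536) and with the block at -2.17 (adjusted p = 0.00292), beside 77 genes (0.485%) under the block. Same-numbered libraries of these groups did not deviate together, with correlations of 0.01, 0.03 and 0.06. Cd14 was low in 5NC too, by -1.83 ± 0.64 against 3NC.

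The remaining markers of smallest p in this comparison differed by less than 1 on the log2 scale. Cd86 was at 1.40, 1.53 and 1.23 CPM in 3NC, 1.03, 1.23 and 0.705 in 5NC, 0.949, 0.838 and 0.942 in 8276KD, and 1.35, 1.25 and 1.43 in 8276OV. All 8276KD libraries lay below 3NC, with a difference of -0.60 ± 0.27 (edgeR, adjusted p = 0.764). Cd48 was at 1.85, 2.81 and 1.75 CPM in 3NC, 1.48, 1.88 and 1.99 in 5NC, 1.52, 1.55 and 1.38 in 8276KD, and 2.45, 1.5 and 1.67 in 8276OV. Lyve1 was at 1.27, 1.1 and 1.1 CPM in 3NC, 1.48, 0.712 and 0.641 in 5NC, 0.443, 0.645 and 0.691 in 8276KD, and 2.19, 0.375 and 0.186 in 8276OV. In both, 8276KD lay below 3NC by few reads, and the differences were -0.52 ± 0.27 for Cd48 (-0.28 without 3NC replicate 2) and -0.95 ± 0.64 for Lyve1. Itgb2 (2.74, 3.42 and 2.01 CPM in 3NC and 1.71, 1.87 and 2.20 in 8276KD) and Mpeg1 overlapped, with differences of -0.49 ± 0.33 and -0.57 ± 0.37; without 3NC replicate 2 these were -0.30 and -0.17. Of the 9 markers called under the block between 8276OV and 5NC, none was called here by edgeR, and their differences of 8276KD from 3NC ran from -0.57 for Mpeg1, -0.43 for Ctss and -0.40 for Itgal to 0.02 for C1qa and 0.04 for Cybb. Without 3NC replicate 2 that of Ctss was 0.32, that of Ptprc 0.24 and that of Cybb 0.59.

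Some signals that attract or feed leukocytes did pass the test here. Of 17 tested growth factors, chemokines and adhesion molecules, edgeR called 4, beside 29 of 16320 genes (0.178%). All 4 were lower in 8276KD than in 3NC: the chemokines Ccl7 (-4.31 ± 0.48, adjusted p = 0.00081), Ccl2 (-4.79 ± 0.82, adjusted p = 0.0366) and Cx3cl1 (-1.76 ± 0.30, adjusted p = 0.0281), and the stem cell factor Kitl (-0.94 ± 0.15, adjusted p = 0.0229). The same 4 were lower in 5NC than in 3NC, with adjusted p-values from 0.00298 to 0.039, beside 59 genes (0.362%), so that 3NC stood above both groups. For 8276KD against 5NC, edgeR called 0 of the 17, beside 8 genes (0.049%). For 8276OV against 3NC it called 2, both lower, beside 52 genes (0.319%). Ccl2 had 54, 58 and 38 reads in 3NC, 4, 2 and 0 in 5NC, 1, 0 and 4 in 8276KD, and 19, 5 and 1 in 8276OV. As for Cd14, 8276OV replicate 1 was the highest library outside 3NC. Of the receptors for these signals that are markers, Cx3cr1, the receptor of Cx3cl1, differed by 0.19 ± 0.32 between 8276KD and 3NC, and by 0.49 without 3NC replicate 2.

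Between the control groups the markers were spread evenly, apart from Cd52 and Cd14. edgeR called 0 of 34 markers, beside 59 genes (0.362%), and those 2 had an unadjusted p under 0.05, beside 1972 genes (12.1%). The mean was higher in 5NC for 20 of 34, with a median of 0.09. Libraries did not overlap for Cd52, which was higher (1 of 34, beside 10.2%), and for Cd14, Cd86 and Itgal, which were lower (3 of 34, beside 6.48%).

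Cd52, a small glycoprotein of lymphocytes that is also known from the epididymis (chr4:134093538-134095073), was at 0.701, 1.04 and 1.10 CPM in 3NC, 3.62, 19.4 and 21.0 in 5NC, 0.506, 4.77 and 1.32 in 8276KD, and 5.73, 3.00 and 1.92 in 8276OV. 5NC replicates 2 and 3 stood far above the other 10 libraries. The difference of 5NC from 3NC was 3.93 ± 0.93 (edgeR, adjusted p = 0.201), and that of 8276OV from 5NC was -2.05 ± 0.79 (adjusted p = 0.444). DESeq2 called the former (adjusted p = 0.00171), as did edgeR without 5NC replicate 1 (adjusted p = 0.0394) and in the blocked fit of the 2 groups (3.78, adjusted p = 0.000119). Same-numbered 5NC and 3NC libraries did not deviate together, however, with correlations of -0.03, 0.01 and 0.02. The epididymis gene Crisp1, singled out after its values were seen, had 163, 1420 and 1405 reads in 5NC and 0 to 147 in the other 9 libraries. The 6 epididymis genes summed to 14.9, 114 and 121 CPM in 5NC and to between 0.806 and 12.2 CPM elsewhere. The part of epididymis RNA in the Cd52 values was not tested.

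**Figure D5:**
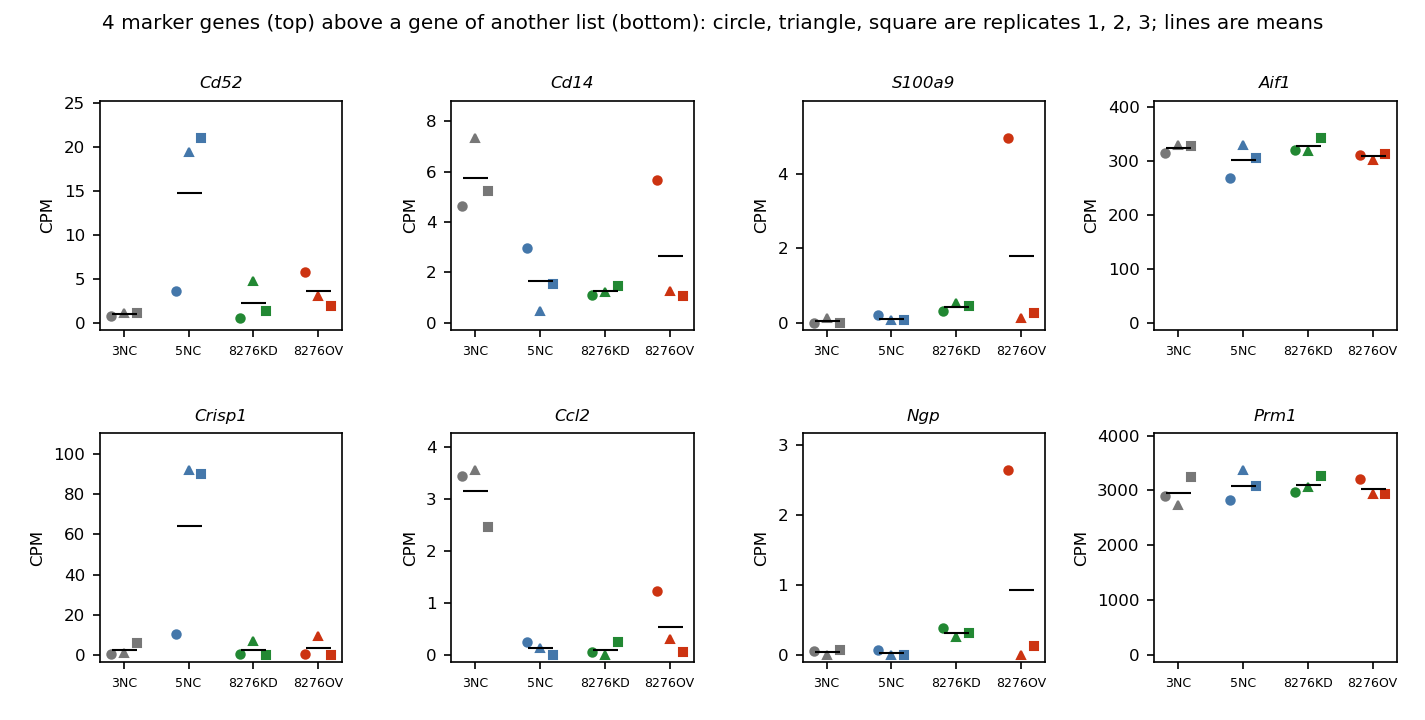
CPM by group of 4 markers (top) and, below each, a gene of another list, with circle, triangle and square for replicates 1, 2 and 3 and lines at the means. Cd52 and Crisp1 are high in 5NC replicates 2 and 3, and S100a9 and Ngp in 8276OV replicate 1. Cd14 and Ccl2 are high in 3NC, and Cd14 in 8276OV replicate 1 as well. Aif1 and the sperm protamine Prm1 vary little between groups.

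With the controls exchanged, the median for 8276OV stayed above 0, but single markers turned. Cd14 went from 0.71 against 5NC to -1.13 against 3NC, Cd52 from -2.05 to 1.89, Cd48 from 0.09 to -0.20, Cd86 from 0.46 to -0.05 and Aif1 from 0.05 to -0.08. Against 3NC, edgeR called 0 of 34 markers, beside 52 genes (0.319%), and the mean was higher in 8276OV for 28 markers, with a median of 0.77. The 8276OV libraries lay above 3NC without overlap for 13 of 34 markers, beside 4.2% of all genes: C1qa, C1qb, Cd163, Cd4, Cd52, Cd68, Coro1a, Cx3cr1, Cybb, Itgal, Laptm5, Lyz2 and Spi1. They lay below for 1, Aif1, beside 3.41%. Cybb and Itgal were on this list and on that against 5NC, and Cd4 was too. For 8276KD against 5NC, 0 of 34 markers were called, beside 8 genes (0.049%), with a median of -0.31 and 7 higher means. The libraries lay apart for 0 markers upwards, beside 5.74%, and for Mpeg1 downwards, beside 8.26%. Comparisons that share a treated group or a control are not independent of each other.

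The difference between the 8276OV effect (against 5NC) and the 8276KD effect (against 3NC) was tested directly. edgeR called 0 of 34 markers, beside 10 genes (0.0613%), and 12 markers had an unadjusted p under 0.05, beside 2560 genes (15.7%). The difference was positive for 30 markers, with a median of 0.84, and without 8276OV replicate 1 for 26, with a median of 0.38. Itgal differed by 1.83 ± 0.40 (adjusted p = 0.171), Ptprc by 1.70 ± 0.55 (adjusted p = 0.257) and Cd14 by 2.90 ± 0.93 (adjusted p = 0.257). These 3 values carry the spread of all 4 groups, and the p-values do not show that the 2 effects were alike.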

How the data were processed

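Total RNA from testis was sequenced in 12 libraries of 4 groups. Expected counts, the estimated reads of each gene in each library, were deposited without normalisation, per the file headers. Of these, 88.0% are whole within 1e-06, and all were rounded before tests. A deposited set of length-scaled values came beside them, for which the unit FPKM was inferred here from the values: over 5204 genes with more than 500 reads, they followed reads over library total to within a median of 0.31%. The build was mm10, per the submitters' processing notes; the aligner, counting program, annotation and strandedness are named in no label or header used here. The table also has 18 per-sample columns that match none of these libraries, and they were left aside. lncRNA8276 itself was not analysed here.

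Tests across genes used edgeR 4.0.16 (R 4.3.3) with robust quasi-likelihood fits of all 4 groups, TMM, a filter at a minimum count of 10 and total of 15 (16320 genes), Benjamini-Hochberg adjustment over all genes, threshold 0.05. The common biological coefficient of variation was 0.13. Log2 fold changes carry a prior count of 0.125, and the SE is their size over the root of F. CPM are reads over the library total. DESeq2 1.42.0, limma 3.58.1, other scalings and filters, pseudocounts of 0.1 and 1 on FPKM, a replicate block, each library left out and the other control were alternatives. The code was tested on simulated data. Replicate numbers come from titles; they were taken as pairs where every same-number correlation of deviations (log2 CPM, prior count 2) was over 0.1. Between 5NC and 3NC these were -0.03, 0.01 and 0.02.

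Members, lists and tests were chosen with earlier results of these data known. Values in every library are given for called markers, for the 6 of smallest p in each treated comparison and for the marker of highest FPKM in each role. Of other lists, called genes or the 2 of smallest p are named; others were added after their values were seen, and 1 gene is not reported here. Counting intervals are exact, at 95%. Coordinates come from RefSeq on GRCm38.p6.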

Additional observations from a re-analysis of the deposited data

How the results depend on the processing

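Counts of calls depended on the tool and on the block more than on scaling or filter. For 8276OV against 5NC, where edgeR called 0 genes, DESeq2 called 45 (1 marker), limma voom 31 (3 markers), the replicate block in the fit of the 2 groups 215 (9 markers), the same block with both number 1 libraries left out 268 (5 markers), and 3NC as control 52 genes. For 8276KD against 3NC (29 genes, 0 markers) DESeq2 gave 70 genes, limma voom 93, limma on log2(FPKM + 0.1) 16, the replicate block 77 (1 marker), the 2 groups alone 1 marker and 5NC as control 8 genes. For 5NC against 3NC (59 genes, 0 markers) DESeq2 gave 151 (1 marker), limma voom 115, log2(FPKM + 0.1) 31, log2(FPKM + 1) 32 and the replicate block 94 (1 marker). For the difference of effects (10 genes) DESeq2 gave 87, limma voom 39, log2(FPKM + 0.1) 6, and 3 without 8276OV replicate 1 and 3NC replicate 2, a choice made after seeing the data. The median of the markers in that difference was 0.43 on log2(FPKM + 1) and 0.28 without those 2 libraries. With 1 library left out at a time, genes called ranged from 0 to 5 (8276OV against 5NC), 10 to 34 (8276KD against 3NC), 16 to 76 (5NC against 3NC) and 4 to 23 (difference), and markers called were 0 throughout, except 1 for 5NC against 3NC without 5NC replicate 1. The median of the markers then ranged from 0.30 to 0.85, from -0.22 to 0.02, from -0.11 to 0.41 and from 0.38 to 0.99 in the same order. The medians for 8276KD and for the control groups thus turned sign. The cause of these differences was not tested. Of the 12 markers of smallest p, Itgal, Ptprc, Cybb, Laptm5, C1qb and Cd14 passed the threshold under at least 1 alternative, and none changed direction under any. Of the 41 markers, 22 had under 100 reads in every library, which limits what 3 libraries a group can show, and the pairing by replicate number is a hint from the data, not from the design.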
